A study of Mus musculus with 577 samples.

Results

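Pools of about 10 granulosa cells that lay next to the oocyte (neighboring, 7 pools) were compared with pools of about 10 granulosa cells that lay away from it (non-neighboring, 7 pools). These 14 pools were chosen by the position class in their labels, out of 577 samples in the series, and every gene row was used, noncoding rows included. The cells were cut by laser capture microdissection (LCM) from early antral follicles in 15 μm cryosections of ovaries of 8-week-old female mice, fixed and stained in cresyl violet and isopropanol. Both groups were made by DRaqL-SC3-seq, in which cells are lysed directly from the section with a detergent that is then quenched, and the 3′ ends of the amplified cDNA are sequenced. Neither the mouse strain nor the mouse and follicle behind each pool is given in the sources used here, so that p-values measure the spread between pools. In the same table, 7 bulk granulosa samples and 16 sections from 8 oocytes served as references without a test. By the paper, some bulk samples were whole granulosa of early antral follicles after removal of the oocyte. Others came from follicles of unidentified stage without an oocyte in the section.

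In the ovarian follicle, granulosa cells nourish the oocyte and take signals from it. Cells next to the oocyte send thin transzonal projections through the zona pellucida and couple to it through gap junctions, and the oocyte secretes GDF9 and BMP15, ligands of the TGF-beta family that guide the metabolism and growth of the surrounding cumulus cells. The comparison asked whether the transcriptome of granulosa cells differs with this position.

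The pools held between 5401905 and 12703277 reads on genes, and 12490 rows passed the filter on low counts, of which 9709 were protein coding. Each pool detected between 14669 and 22504 genes with at least 1 read. The levels of the tested genes correlated between pools with Pearson's r of 0.431 to 0.801 across genes, with medians of 0.553 among neighboring pools, 0.583 among non-neighboring pools and 0.562 between the groups. Markers of granulosa cells marked both groups. Inha, the inhibin alpha subunit, lay between 10.89 and 12.31 on the log2(RPM+1) scale in the neighboring pools (median 11.91) and between 10.21 and 12.62 in the non-neighboring pools (median 11.77). RPM are reads scaled to a common total over all gene rows of a pool.

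Neighboring pools carried more RNA of a set of genes known from oocytes, and 1 pseudogene row was higher in non-neighboring pools. By edgeR's quasi-likelihood test with Benjamini-Hochberg adjustment, 35 genes were higher in neighboring pools (0.28% of those tested) and 1 row, Tpt1-ps6, was higher in non-neighboring pools (0.00801%), or 36 in either direction (0.288%). At an unadjusted p under 0.05, 339 genes were higher in neighboring pools (2.71%) and 265 were higher in non-neighboring pools (2.12%), which is 4.84% of those tested in either direction. By DESeq2, an alternative count test, 134 genes (1.07%) and 16 genes (0.128%) passed. With the pool number, which recurs in both groups, as a block in edgeR, 0 genes passed in either direction (703 at an unadjusted p under 0.05). The levels of the 7 neighboring pools lay wholly above those of the 7 non-neighboring pools in 69 genes (0.552%) and wholly below in 3 (0.024%). The fold changes of all tested genes were centered, with a median of -0.01 and 49.3% of genes above 0. The number of genes passing the threshold depended on single pools, from 0 without non-neighboring pool 03 (488 at an unadjusted p under 0.05) to 52 without neighboring pool 03.

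**Figure D1:**
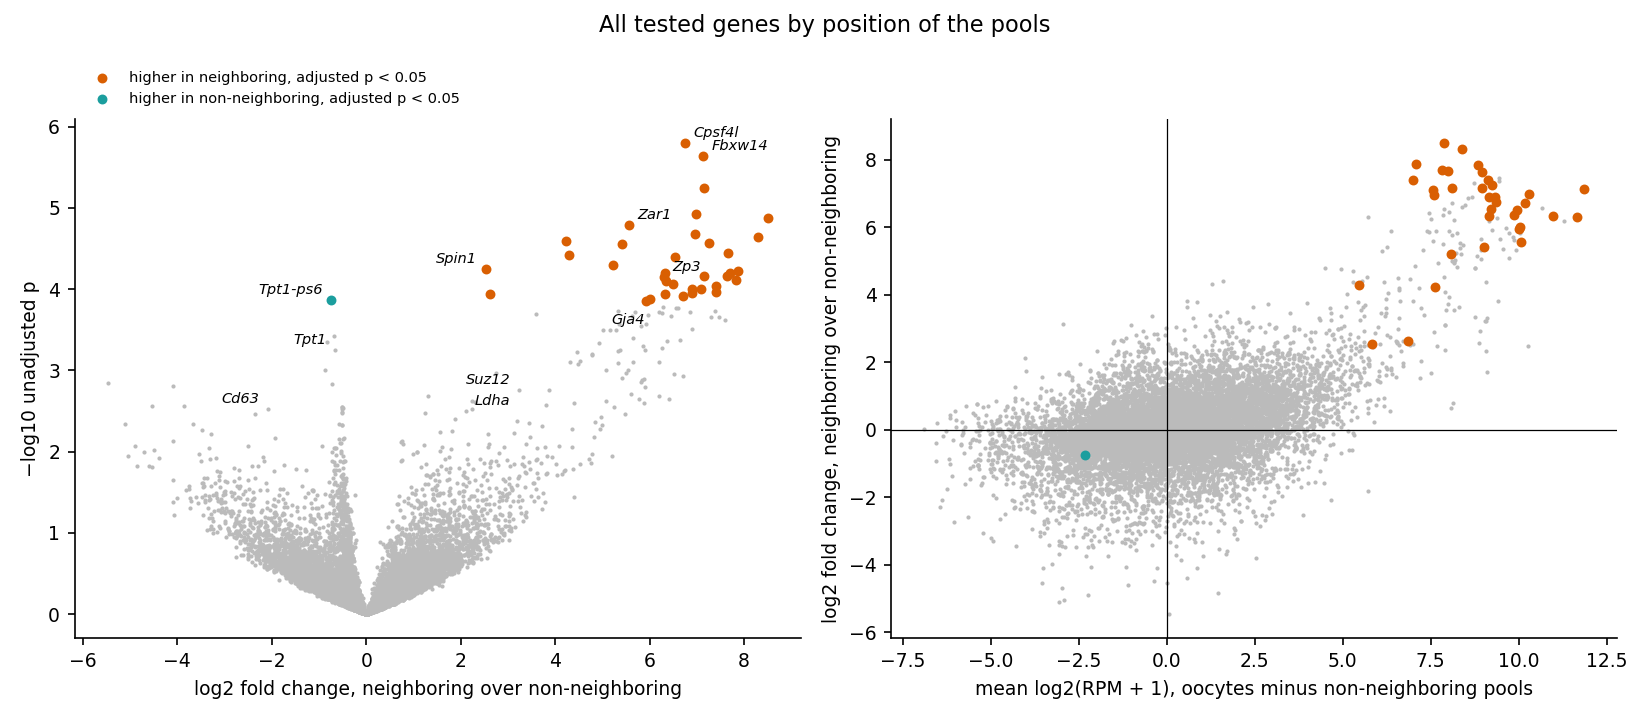
Left, the log2 fold change of neighboring over non-neighboring pools against the −log10 unadjusted p of edgeR's test for 12490 genes. Right, the same fold change against the difference between oocytes and non-neighboring pools in mean log2(RPM+1). Orange points mark the 35 genes higher in neighboring pools at an adjusted p under 0.05, and the blue-green point marks Tpt1-ps6. The orange points lie on the right of both panels, and each has a mean in oocytes above that in non-neighboring pools.

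Fbxw14, an F-box gene of an oocyte cluster, stood at 6.33 to 9.26 in the neighboring pools (median 7.39) and at 0.00 to 2.91 in the non-neighboring pools (median 0.78), on the log2(RPM+1) scale. The groups did not overlap. The fitted log2 fold change was 7.13 ± 1.01 (SE, n = 7 and 7, edgeR adjusted p = 0.0145). Zar1, an RNA-binding maternal factor needed for early development, stood at 6.33 to 9.26 (median 6.70) against 0.31 to 4.43 (median 2.12), again without overlap, and its fold change was 5.56 ± 0.93 (edgeR adjusted p = 0.0312). Both genes were far higher in the oocyte sections, with means of 13.02 for Fbxw14 and 12.09 for Zar1. The bulk granulosa samples lay between the groups on average, with means of 3.68 for Fbxw14 and 3.85 for Zar1. In bulk RNA of pooled cells, fewer cells of a type and less RNA per cell cannot be told apart.

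Secreted and coat proteins of the oocyte were among the genes that differed. Gdf9 ranged from 5.35 to 10.20 in neighboring pools (median 7.40) and from 0.00 to 4.00 in non-neighboring pools (median 2.58), and its fold change was 6.32 ± 1.19 (edgeR adjusted p = 0.0403). Zp3, a structural protein of the zona pellucida, ranged from 3.01 to 8.46 (median 7.69) against 0.00 to 2.45 (median 0.68), with a fold change of 6.30 ± 1.20 (edgeR adjusted p = 0.0403). The groups did not overlap for either gene. Zp1, which cross-links the zona filaments, also passed the threshold, whereas Zp2 did not (6.19 ± 1.51, edgeR adjusted p = 0.126). Zp2 had no read in neighboring pool 07. Oosp1, an oocyte-secreted protein, was at 5.25 to 8.99 (median 7.78) against 0.00 to 3.33 (median 0.16), without overlap. Bmp15, the partner of Gdf9, had a fold change of 3.32 ± 1.72 and did not pass (edgeR adjusted p = 0.999). It ranged from 0.00 to 6.75 in neighboring pools (median 3.94), and non-neighboring pool 02 alone, at 4.14, exceeded that median.

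**Figure D2:**
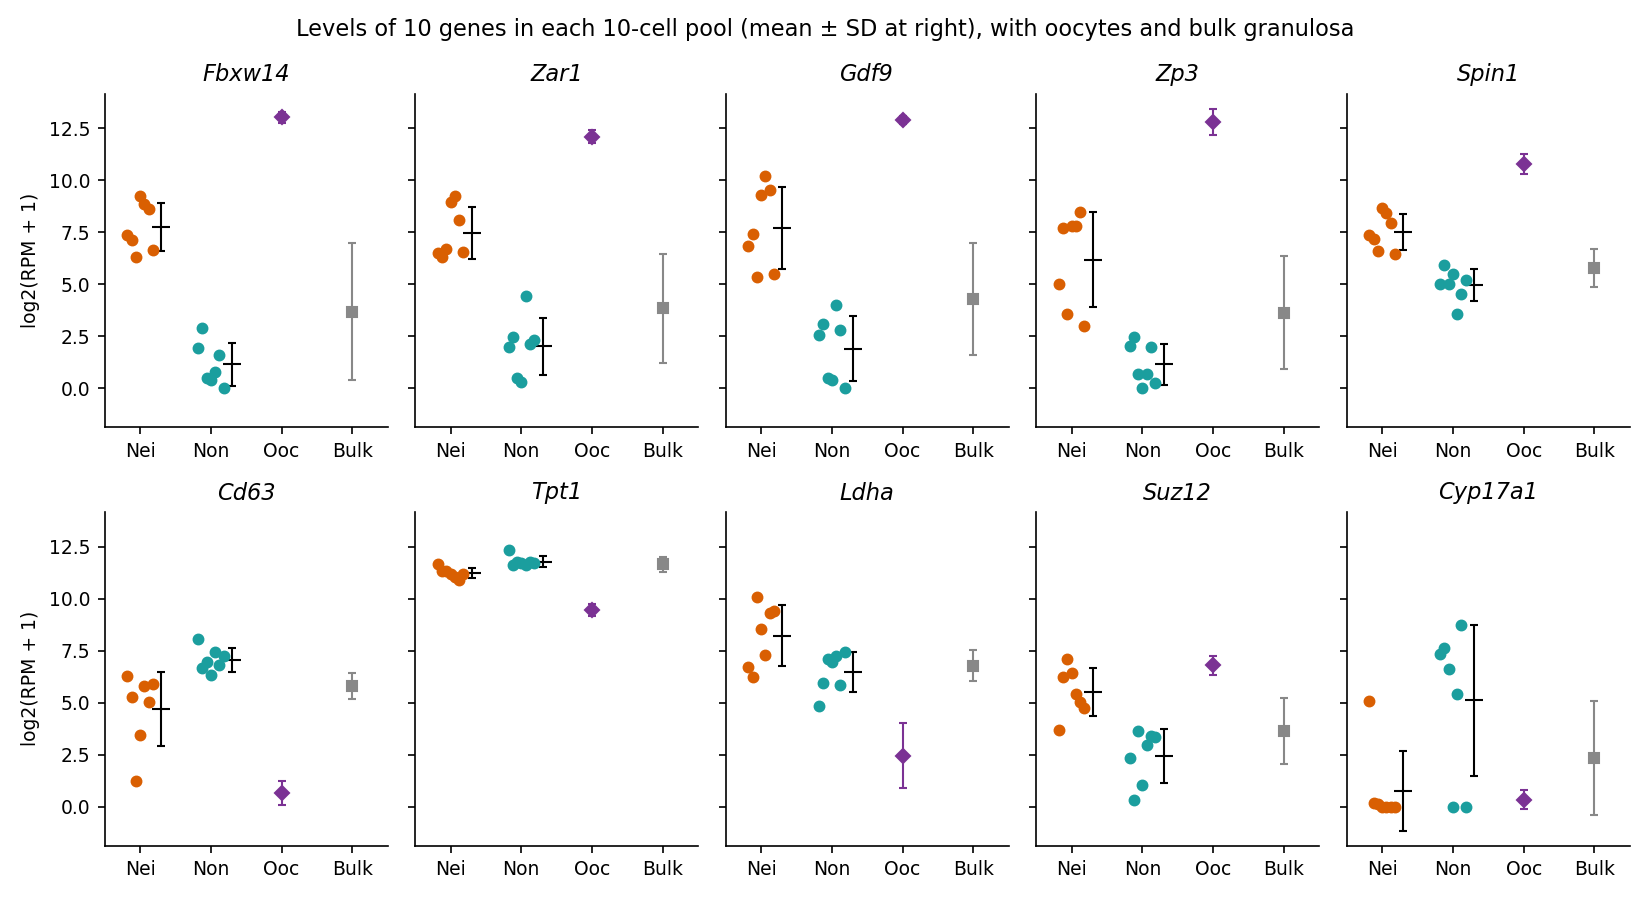
Levels on the log2(RPM+1) scale of 10 genes in the neighboring (Nei, orange) and non-neighboring (Non, blue-green) pools, 1 point per pool, with the mean and SD of the 7 pools at the right of each group. Diamonds and squares give the mean and SD of 8 oocytes (Ooc) and 7 bulk granulosa samples (Bulk). The pools do not overlap for Fbxw14, Zar1, Gdf9, Zp3, Spin1, Cd63 and Suz12, and the oocyte mean stands above every pool for the first 5 of these and below every pool for Cd63.

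A list of 65 oocyte genes showed the same direction in almost all tested members. Of these, 64 had reads in the pools or the reference samples, and 45 passed the filter, which genes high in 1 group alone could pass. The direction of a member that passed in that way was set by the filter, and the counts and the median below include such members. A total of 14 were higher in neighboring pools by edgeR's test, none was lower, 44 had a fold change above 0, and 25 did not overlap between groups. Over all genes tested, the shares were 0.28% higher, 49.3% above 0 and 0.552% without overlap in that direction. The median log2 fold change was 5.69, beside -0.01 over all genes tested, and 43 to 45 members were above 0 under the other scalings. All 6 tested genes of the Tcl1 cluster, which are small coactivators of the kinase AKT, had fold changes between 6.26 and 8.50, and 5 passed. Tcl1b3 had the highest fitted fold change of the tested genes, 8.50 ± 1.39 (edgeR adjusted p = 0.0312), from 3210 reads over the neighboring pools and 7 over the non-neighboring pools. Reads of such near-identical paralogs, like those of the Fbxw, Obox and Oog families, could be split between copies by the counting, so that the value of a single member is uncertain.

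Other oocyte roles differed in how many members passed. Of 4 tested regulators of maternal mRNA, Zar1 and Btg4, an adaptor for mRNA decay, passed. Bcl2l10, a survival gene of the Bcl2 family, passed (6.35 ± 1.22, edgeR adjusted p = 0.0412), and so did the oogenesin Oog3. Among 5 tested transcription factors none passed, although Obox1 (5.97 ± 1.26, edgeR adjusted p = 0.0546) and Nobox (6.65 ± 1.51, edgeR adjusted p = 0.0841) did not overlap between groups. None of 4 tested genes of the subcortical maternal complex or of 3 tested NLRP genes passed. H1foo, the oocyte linker histone, had 5.34 ± 1.26 (edgeR adjusted p = 0.102). Outside the list, Mos, the kinase that holds the egg at metaphase, and Cpsf4l, related to a subunit of the cleavage and polyadenylation factor and the gene with the smallest p, were also higher in neighboring pools.

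All 35 genes higher in neighboring pools (100%) had a mean level in oocytes above its mean in neighboring pools, against 52.1% of all genes tested. Of the 339 genes higher at an unadjusted p under 0.05, 73.5% had one, and of the 265 genes higher in non-neighboring pools at that p, 38.1% had one. Set against the non-neighboring pools, the mean in oocytes was above in 50.8% of the tested genes and in 17.4% of those 265. Those 265 were selected for higher levels in these same pools, which by itself lowers their share. The mean RPM in neighboring pools was between 1.91% (Zp3) and 42.7% (Gm26618) of the mean in oocytes for the 35 genes, with a median of 10.9%. For the 45 oocyte genes it was between 1.34% (Zp2) and 22.3% (Btg4), with a median of 7.07%. Across the 45 genes, the mean levels in neighboring pools and in oocytes correlated with Pearson's r of 0.737 (Spearman's rho 0.743), a description across genes that share their libraries.

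The summed level of the oocyte genes told the pools apart. The 64 genes with reads summed to 1226 to 13414 RPM in neighboring pools (median 2433) and to 83.3 to 589 RPM in non-neighboring pools (median 214), without overlap. Neighboring pools 04, 05 and 06 were the highest, at 9725, 13414 and 8924 RPM, and the next was pool 02 at 2433 RPM. The sums in oocytes were 81252 to 110120 RPM, so that neighboring pools reached 1.28% to 14.1% of the oocyte median and non-neighboring pools 0.0873% to 0.617%. Bulk granulosa samples had a median of 360 RPM and reached 2790 RPM. Oocyte RNA in the captured area, in projections or in granulosa cells themselves cannot be told apart in these pools.

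**Figure D3:**
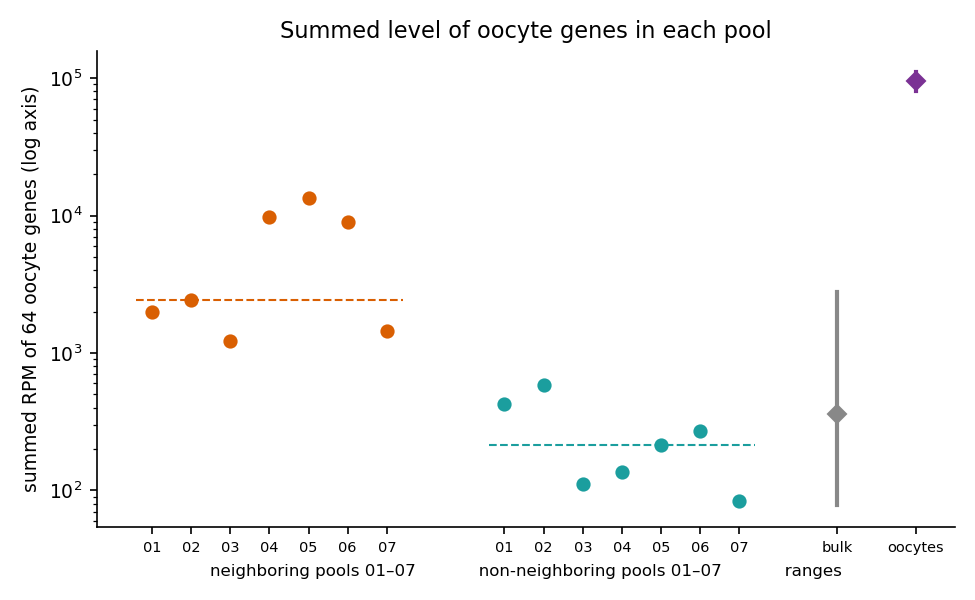
Summed RPM of 64 oocyte genes, on a log axis, in neighboring pools 01 to 07 (orange) and non-neighboring pools 01 to 07 (blue-green), with dashed lines at the group medians. The bars at the right give the lowest and highest value, and diamonds the median, of 7 bulk granulosa samples and 8 oocytes. The lowest neighboring pool, at 1226 RPM, is above the highest non-neighboring pool, at 589 RPM.

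A pair of genes with smaller differences were also expressed in the non-neighboring pools. Spin1, a reader of histone methylation, was at 6.43 to 8.65 in neighboring pools (median 7.37) and at 3.56 to 5.91 in non-neighboring pools (median 5.03), with a fold change of 2.53 ± 0.47 (edgeR adjusted p = 0.0403). Uchl1, a ubiquitin hydrolase abundant in oocytes, was at 6.43 to 9.60 (median 8.14) against 4.46 to 6.82 (median 5.68), with a fold change of 2.63 ± 0.52 (edgeR adjusted p = 0.0447). The groups did not overlap for Spin1 and did for Uchl1. Mean levels in oocytes were 10.78 for Spin1 and 12.37 for Uchl1.

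Promoters are shown for the marker genes Fbxw14 and Zar1, for Zp3 and for Tcl1b1, as examples of genes with fold changes above 0. The element marked is the E-box (CANNTG, the same on both strands), which oocyte factors such as FIGLA bind. The sequences are from RefSeq (GRCm38.p6), run from 250 bases before to 50 bases after the gene start, and have E-boxes in capitals.
Fbxw14, chr9:109287627-109287926, minus strand: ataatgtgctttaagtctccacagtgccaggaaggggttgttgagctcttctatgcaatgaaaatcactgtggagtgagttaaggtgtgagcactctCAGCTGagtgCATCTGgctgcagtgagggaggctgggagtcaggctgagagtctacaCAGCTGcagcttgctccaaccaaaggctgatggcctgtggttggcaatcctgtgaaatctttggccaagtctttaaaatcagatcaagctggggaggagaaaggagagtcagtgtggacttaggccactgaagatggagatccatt
Zar1, chr5:72581035-72581334, minus strand: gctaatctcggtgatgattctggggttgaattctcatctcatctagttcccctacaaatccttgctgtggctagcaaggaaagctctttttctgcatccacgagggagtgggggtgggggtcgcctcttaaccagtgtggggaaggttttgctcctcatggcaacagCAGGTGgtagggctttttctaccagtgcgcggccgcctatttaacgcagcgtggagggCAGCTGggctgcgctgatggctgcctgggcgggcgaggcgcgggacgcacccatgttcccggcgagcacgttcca
Zp3, chr5:135979855-135980154, plus strand: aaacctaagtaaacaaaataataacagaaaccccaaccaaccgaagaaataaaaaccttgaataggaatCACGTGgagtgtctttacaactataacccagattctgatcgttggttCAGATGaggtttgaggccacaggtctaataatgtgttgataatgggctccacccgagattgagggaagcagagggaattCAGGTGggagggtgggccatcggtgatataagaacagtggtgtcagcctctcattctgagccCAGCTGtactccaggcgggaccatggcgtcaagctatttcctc
Tcl1b1, chr12:105159454-105159753, plus strand: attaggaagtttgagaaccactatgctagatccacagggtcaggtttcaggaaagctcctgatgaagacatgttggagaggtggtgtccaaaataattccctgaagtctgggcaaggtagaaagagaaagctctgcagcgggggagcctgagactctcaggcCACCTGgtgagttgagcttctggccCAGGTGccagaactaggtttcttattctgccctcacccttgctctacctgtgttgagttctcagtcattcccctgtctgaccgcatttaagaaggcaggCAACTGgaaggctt

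Promoters were matched for 22 of the 35 genes higher in neighboring pools, and 19 of them (86.4%) held an E-box, against 61.8% of 7554 matched promoters of tested genes and 72.1% of all 27025 promoters. The printed promoters all held E-boxes, whereas those of Cpsf4l and Uchl1, also higher in neighboring pools, held 0. TAATTG, read on both strands, the element of NOBOX, was in 2 of the 22 (9.09%), against 4.54% of the tested genes and 8.15% of all promoters. TAATTA was in 0 of them (2.41% of tested genes and 5.31% of all promoters). AAGGTCA, read on both strands, was likewise in 0 (3.03% and 4.66%). These matches of letters describe the windows and were not tested.

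Among noncoding rows, 4 of 2781 were higher in neighboring pools (0.144%) and 1 was higher in non-neighboring pools (0.036%). For each of the 5, reads of an overlapping or near-identical gene may be counted on it, and strandedness of the counting is not given in the sources used here. Gm22661, a small nucleolar RNA gene on chromosome 13 (95332618 to 95332749, plus strand, GRCm38), lies inside Zbed3 and held a median of 99.9% as many reads as Zbed3 itself (24.4% in the lowest pool). Its level was 5.72 to 9.39 in neighboring pools (median 6.37) against 1.64 to 4.52 (median 3.47), with a fold change of 4.22 ± 0.73 (edgeR adjusted p = 0.0312). Zbed3 itself had 3.59 ± 0.76 (edgeR adjusted p = 0.0546).

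Gm26618 on chromosome X (6027056 to 6092269, minus strand) overlaps AU022751, whose levels followed it over the pools with r = 0.964, and its fold change was 4.29 ± 0.77 (edgeR adjusted p = 0.0362). Gm20548 on chromosome 5 (101837416 to 101846410, plus strand) is antisense to Wdfy3, and its fold change of 7.09 ± 1.40 (edgeR adjusted p = 0.0447) stood beside -0.77 for Wdfy3. The processed transcript RP23-214I6.5 on chromosome 5 (122987683 to 123012874, minus strand) overlaps Kdm2b, had low levels of 1.33 to 3.95 in neighboring pools (median 2.56) and 0.00 to 0.49 in non-neighboring pools (median 0.22), and did not overlap between groups. All 4 rows were higher in oocytes than in neighboring pools.

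Noncoding rows took 30.2% ± 1.64 (SD, n = 7) of the reads in neighboring pools and 32.7% ± 2.05 in non-neighboring pools, a difference of -2.52 percentage points. The 2-sided exact permutation test over 3432 splits gave p = 0.0274, or 0.0822 after Benjamini-Hochberg adjustment over the 3 measures tested per pool. The noncoding share may include reads of coding genes. Of 2781 tested noncoding rows, 1675 were processed pseudogenes, and Tpt1-ps3, for example, held a median of 98.4% as many reads as Tpt1. The number of detectable genes was 18359 ± 2866 (SD, n = 7) against 18271 ± 1369 (exact permutation p = 0.943, adjusted 0.986). The share of ERCC spike-in reads relative to gene reads was 5.61% ± 3.19 against 5.65% ± 4.87 (exact permutation p = 0.986, adjusted 0.986). Spike-ins were added to every tube, and this ratio falls as the RNA captured from the cells grows. None of the 3 measures passed the threshold after adjustment.

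Tpt1, encoding a calcium-binding protein linked to translation, and Cd63, a tetraspanin of late endosomes, were abundant in granulosa cells and lower in oocytes. Tpt1 was at 10.91 to 11.65 in neighboring pools (median 11.20) and at 11.60 to 12.34 in non-neighboring pools (median 11.72), and the ranges overlapped slightly. Its fold change was -0.67 ± 0.16 and did not pass (edgeR adjusted p = 0.101). The processed pseudogene Tpt1-ps6 on chromosome X held 57.9% to 82.2% as many reads as Tpt1 in each pool and passed, at -0.74 ± 0.15 (edgeR adjusted p = 0.048). It was at 10.51 to 11.32 (median 10.75) against 11.11 to 11.95 (median 11.38). Reads of the pseudogene and of its parent cannot be told apart here.

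Cd63 was at 1.23 to 6.30 in neighboring pools (median 5.29) and at 6.32 to 8.06 in non-neighboring pools (median 6.94). The groups did not overlap, by a margin of hundredths of a unit. The fold change was -2.08 ± 0.60, which missed the threshold (edgeR adjusted p = 0.319, DESeq2 adjusted p = 0.044). Its mean in oocytes was 0.68. Of 8 abundant genes for proteins of the ribosome, translation, membrane and cytoskeleton, 7 had a fold change below 0 with a median of -0.37, 4 of them at an unadjusted p under 0.05 (2.12% of all tested genes in that direction), and none passed. Scaling by ERCC totals put the median of all genes at -0.40 and library totals put it at 0.10, so that small differences depended on the scaling.

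Granulosa identity genes did not pass the threshold. Of 17 genes, 12 passed the filter, 8 had a fold change above 0, and the median was 0.06, with a range from -0.58 to 0.91. With ERCC totals the median was -0.35. Amhr2, the receptor of anti-Müllerian hormone, had 0.28 ± 0.32 (edgeR adjusted p = 0.999) and Inha had -0.18 ± 0.33 (edgeR adjusted p = 0.999). Their summed levels were 3938 to 10495 RPM in neighboring pools and 2641 to 13259 RPM in non-neighboring pools, beside 545 to 826 RPM in oocytes. A p that misses the threshold does not show that the positions are alike.

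Glycolysis genes that oocyte factors promote in cumulus cells stood higher on average in the neighboring pools, though none passed the threshold. Of 8 tested, 7 had a fold change above 0, against 49.3% of all genes tested, and the median was 1.51, beside -0.01 over all genes. Under the other scalings 7 were likewise above 0, with medians of 0.63 (ERCC totals) to 1.53. At an unadjusted p under 0.05, 6 of the 8 were higher in neighboring pools, against 2.71% of all genes tested. Ldha, lactate dehydrogenase A, was at 6.25 to 10.07 in neighboring pools (median 8.55) and at 4.85 to 7.43 in non-neighboring pools (median 6.94), with overlap. Its fold change was 2.12 ± 0.62 (edgeR adjusted p = 0.336, DESeq2 adjusted p = 0.0268). Unlike the genes of the oocyte list, its level in oocytes, 2.47 on average, lay below both groups of pools.

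Tpi1, triose phosphate isomerase, was at 6.69 to 9.95 (median 8.51) against 4.67 to 7.98 (median 7.06), with 1.89 ± 0.56 (edgeR adjusted p = 0.398, DESeq2 adjusted p = 0.0467). Eno1, an enolase, had 1.49 ± 0.56 and Aldoa, aldolase A, had 1.53 ± 0.59, with edgeR adjusted p of 0.816 and 0.851. Of the 8 genes, 1, the phosphofructokinase Pfkm, had a higher mean in oocytes than in neighboring pools, and its fold change was -1.50 ± 1.45 (edgeR adjusted p = 0.999). The remaining cumulus genes were near 0, with a median of 0.14 over 9 tested genes of cholesterol synthesis and 0.36 over 5 tested genes for amino acid transport and related functions.

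**Figure D4:**
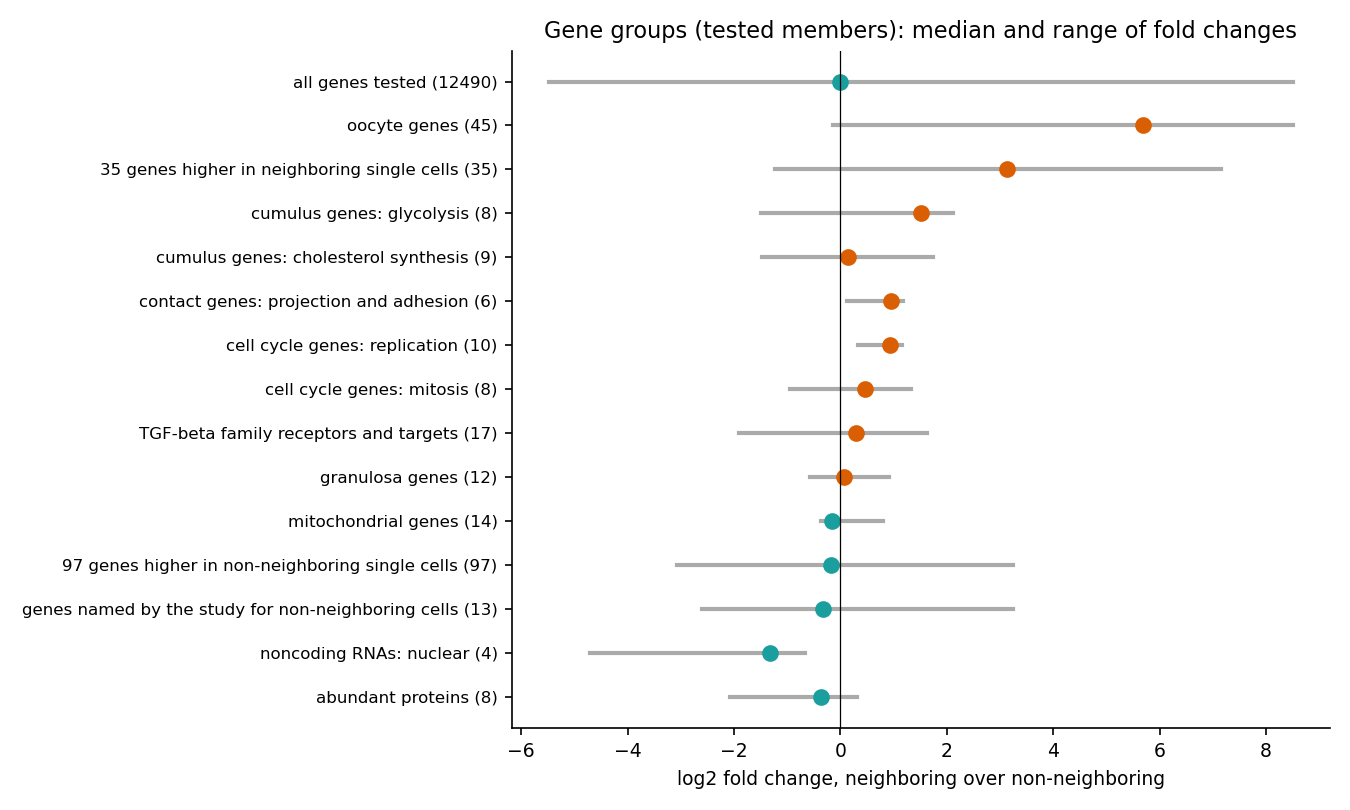
Log2 fold changes of neighboring over non-neighboring pools in groups of genes, with the number of tested members in parentheses. Points give the median and lines run from the lowest to the highest member. Oocyte genes have a median of 5.69, glycolysis genes of 1.51 and all tested genes of -0.01. Nuclear noncoding RNAs have the lowest median among the groups drawn.

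None of the 8 tested genes of gap junctions and transzonal projections passed the threshold. All 8 had a fold change above 0 with a median of 0.96, and 6 did with ERCC totals, with a median of 0.45. Gja4, the connexin 37 of the oocyte side of the junction, was at 2.69 to 8.83 in neighboring pools (median 4.63) and at 0.21 to 3.42 in non-neighboring pools (median 1.89). Its fold change was 5.02 ± 1.11 (edgeR adjusted p = 0.0678), and its mean in oocytes was 10.08. Gja1, the connexin 43 that joins granulosa cells, had 0.34 ± 0.33 (edgeR adjusted p = 0.999) and was 1.11 on average in oocytes, and it turned to -0.42 with ERCC totals. Receptors, SMAD proteins and targets of the TGF-beta family, which read GDF9 and BMP15, had a median of 0.28 over 17 tested genes (-0.21 with ERCC totals), and none passed.

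Genes of the theca and interstitium, which lie outside the granulosa layer, had a higher median sum in non-neighboring pools, with overlap. Their summed level was 4.90 to 1498 RPM in neighboring pools (median 18.8) and 38.4 to 4314 RPM in non-neighboring pools (median 644). Cyp17a1, which makes androgens in theca cells, was at 0.00 to 5.10 in neighboring pools (median 0.00) and at 0.00 to 8.74 in non-neighboring pools (median 6.64), and did not pass the filter on low counts. Of 7 genes of this list, 6 had reads and 2 were tested, at -2.30 and -2.95, and none passed. Blood genes reached at most 11.5 RPM in neighboring and 1200 RPM in non-neighboring pools, at a median of 0 RPM in either group. The part of such cells in the differences of other genes was not tested.

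Gene lists that the study drew from single cells of these positions, not from the pools, were looked up next. The paper itself shows the levels of both lists in the pools as box plots. It reports that the pools bore out the expression profiles of these genes. The list for neighboring cells held 35 genes and that for non-neighboring cells 97. Of the 35, all were tested in the pools, 30 had a fold change above 0 with a median of 3.13, and 8 passed, against 49.3% above 0 and 0.28% passing over all genes tested. The 14 that are also in the oocyte list all had fold changes above 0, with a median of 6.11 and 6 past the threshold. The 21 others had a median of 1.15, with 16 above 0 and 2 past the threshold. Of these 35 genes, 30 had a higher mean in oocytes than in neighboring pools.

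Of all 12490 genes tested, 6330 had a fold change below 0, and the median was -0.01. Of the 97 genes, 55 had a fold change below 0 with a median of -0.17, and none passed by edgeR. By DESeq2, 1 passed, as higher in neighboring pools, against the direction of the list. At an unadjusted p under 0.05, 2 were higher in non-neighboring pools, a share near the 2.12% of all genes tested. The paper's statement that the pools bore out the profiles covers this list too, but these counts by gene show little of it. The paper's box plots of the levels of the list were not repeated here. Among 13 genes named for non-neighboring cells, 8 were below 0, with a median of -0.34. At an unadjusted p under 0.05, 1 of the 13 was higher in neighboring pools and 1 was higher in non-neighboring pools. Over all genes tested, the shares were 2.71% and 2.12%. Suz12, a subunit of Polycomb repressive complex 2, was at 3.70 to 7.10 in neighboring pools (median 5.43) against 0.35 to 3.67 (median 2.96). The groups did not overlap, and the fold change was 3.24 ± 0.87 (edgeR adjusted p = 0.226, DESeq2 adjusted p = 0.000773). Suz12 was at 6.81 on average in oocytes. For the protein, the paper reports by immunofluorescence a higher SUZ12 signal in non-neighboring than in neighboring granulosa cells of antral follicles.

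Among nuclear noncoding RNAs, Neat1, the scaffold of paraspeckles, was at 0.00 to 2.18 in neighboring pools (median 0.37) and at 0.00 to 6.15 in non-neighboring pools (median 3.24). It had -4.71 ± 1.62 (edgeR adjusted p = 0.704, DESeq2 adjusted p = 0.0404). Malat1, of nuclear speckles, had -0.67 ± 0.61 (edgeR adjusted p = 0.999). Of 14 tested noncoding RNAs known by name, 8 were below 0, the median was -0.36, and none passed.

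Single granulosa cells labelled with the same position classes, prepared by 8 protocols, were compared for the same genes. In 7 protocols the cells were cut from sections, and for 1 of these, labelled formalin 24 h, the sections had been fixed in formalin. The freshly dissociated cells were instead classed by attachment to the oocyte in dissociated cumulus-oocyte complexes. The protocols are not independent, since several used sections of 1 ovary and the fresh cells shared their mouse with another set. Their reads were summed by protocol and position and scaled to coding reads, so that each group of cells is 1 sample and no test was made. Of the 31 coding genes higher in neighboring pools, 28 (90.3%) were also higher in neighboring single cells in all 8 protocols, against 2.34% of 9709 tested coding genes. Without the fresh cells, 29 (93.5%) were higher in all 7 protocols, against 3.46%. The paper reports that some granulosa cells, among fresh cells more often those attached to oocytes, had profiles mixed with those of oocytes. It removed such cells from its DRaqL-SC3-seq analyses. The cells of the protocol labelled LCM are those left after that removal. Summed reads can rest on few cells, and the part of mixed cells in the ratios of the other protocols was not tested. Fbxw14 and Zar1 were higher in 8 of 8, with log2 ratios (RPM+1) between 2.41 and 5.08 for Fbxw14 and between 1.65 and 4.60 for Zar1. Ldha was higher in 8 of 8, with log2 ratios between 0.27 and 3.77, and 3 of the 8 glycolysis genes (37.5%) were. Cd63 was higher in neighboring cells in 3 of 8 protocols, Tpt1 in 1 of 8 and Suz12 in 5 of 8. Tpt1-ps6 was higher in 0 of the 5 protocols with values for it. Cyp17a1 was higher in 0 of 8, and in the protocol labelled LCM-seq it had 0 RPM in both positions and so no direction.

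**Figure D5:**
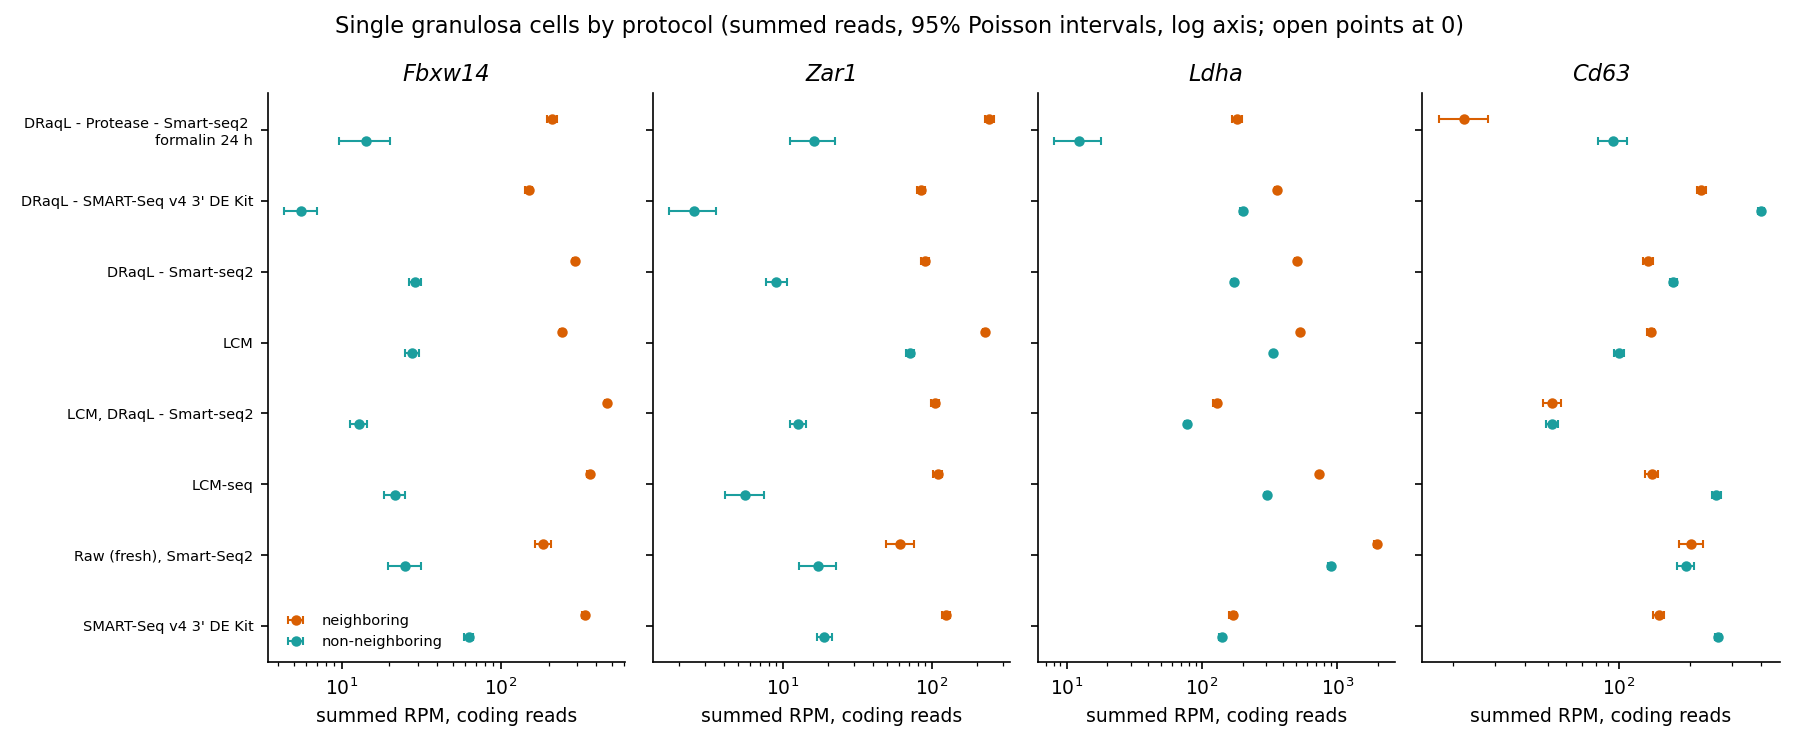
RPM over coding reads of Fbxw14, Zar1, Ldha and Cd63, summed over neighboring (orange) and non-neighboring (blue-green) single granulosa cells, for 8 protocols as labelled, on log axes. Bars are exact Poisson intervals at 95%, which cover counting error alone. Orange lies to the right of blue-green in 8 of 8 protocols for Fbxw14, Zar1 and Ldha, and in 3 of 8 for Cd63.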

How the data were processed

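The members of this comparison, the gene lists and the tests were chosen with earlier results of these data known. The deposited values were read counts per gene, without normalization, which the authors obtained from HTSeq 0.10.0 with reads lying within 10 kb of the 3′ end of a gene included in its count. Before that they trimmed the reads (cutadapt 1.16, fastp 0.20.0) and placed them on the GRCm38 genome (HISAT2 2.1.0). Amplified reads carried no molecular identifiers, so that counting intervals cover counting error alone. The labels and the methods differ on the number of amplification cycles.

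The table held 45905 rows, of which 22060 were protein coding, and 33401 had reads in the pools. Totals are given with the results. Neighboring and non-neighboring pools were compared with edgeR 4.0.16 in R 4.3.3 (TMM, filterByExpr, glmQLFit, glmQLFTest), with Benjamini-Hochberg adjustment over all tested rows and a threshold of 0.05. Levels are log2(RPM+1) with a pseudocount of 1, and sections of an oocyte were averaged. The main test uses counts and no block, whereas the study compared log2(RPM+1) values with a difference over 1.8, which limma 3.58.1 repeated as an alternative. Others were DESeq2 1.42.0, scalings, filters, pseudocounts of 0.1 and 10, the pool number as a block, an oocyte-gene covariate and leaving out each pool. Values per pool were compared by 2-sided exact permutation tests, which cannot go below 0.000583. The scripts were tested on simulated data and also used scipy 1.17.1, pandas 2.3.3, numpy 2.4.6, matplotlib 3.10.9 and python 3.11.15.

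Named were the markers, the genes the study names for position, list members past the threshold, the 15 genes past it with the smallest p in each direction, the 15 such genes lower in oocytes than in neighboring pools (there were none), the 8 such noncoding rows in each direction and the 5 genes of each study list with the smallest p. The rules by p left out genes with means under 4 in both groups, and not all named genes are printed. Uchl1, Oosp3, RP23-214I6.5, Zbed3, AU022751, Wdfy3, Kdm2b and list members that did not pass were named after their values were seen. Leaving out the freshly dissociated single cells was an alternative chosen after seeing the data. In the tables of single cells, 44 columns were not used because their names could not be matched to labels.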

Additional observations from a re-analysis of the deposited data

Results flagged for a closer look

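Within groups of 7 pools, the highest or lowest pool was compared with its nearest neighbor for the levels of the printed genes and the values per pool, 100 groups in all, and 11 stood apart. Chance gives about 1 in 20. All values are log2(RPM+1).

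Non-neighboring pool 01 was the highest for Tpt1 at 12.34, above the 11.60 to 11.77 of the others, for Tpt1-ps6 at 11.95 (others 11.11 to 11.45) and for Tcl1b2 at 0.87 (others 0.00 to 0.24). Tcl1b2 rested on 8 reads over the non-neighboring pools. In the neighboring pools, Zp2 was lowest in pool 07 at 0.00 (others 4.88 to 7.03), Oosp3 in pool 03 at 1.59 (others 4.91 to 6.97) and Flna in pool 05 at 0.22 (others 6.82 to 8.11). Neighboring pool 05 was the highest for Tcl1b1 at 8.39 (others 4.47 to 6.13), and neighboring pool 01 for Cyp17a1 at 5.10 (others 0.00 to 0.21). Non-neighboring pool 02 was the highest for Bmp15 at 4.14 (others 0.00 to 1.50). Non-neighboring pool 06 was the highest for Aldoa at 9.43 (others 6.55 to 7.43) and the lowest for Itih5 at 0.24 (others 5.86 to 7.94).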

How the results depend on the processing

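The count of 35 genes higher in neighboring pools became 134 by DESeq2, 61 by limma, 59 by limma with the study's difference of 1.8, 69 and 18 by limma with pseudocounts of 0.1 and 10, and 0 with the oocyte-gene level as a covariate (529 at an unadjusted p under 0.05). That covariate is the summed level of genes that differ, which did not overlap between the groups (1226 to 13414 against 83.3 to 589 RPM), so its fit could hardly be told apart from the group and says nothing about the stability of the calls. Other scalings and filters gave 30 to 52. Of the 36 genes past the threshold, 35 remained past it by DESeq2, 30 with RLE scaling, 25 with ERCC totals and 32 by limma. The 1 row higher in non-neighboring pools became 16 by DESeq2, was 1 protein-coding row without a filter beyond 1 read, and was 0 under RLE, upper-quartile, library-total and ERCC scaling, with protein-coding rows only, with the covariate and in the 4 limma fits. Noncoding rows higher in neighboring pools numbered 15 by DESeq2, 0 with the covariate, and 7 and 1 at pseudocounts of 0.1 and 10. Those higher in non-neighboring pools numbered 4 by DESeq2 and 0 under the other scalings, without a filter, with the covariate and in the limma fits.

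Of the oocyte list, 34 genes passed by DESeq2, 22 with ERCC totals, 26 in both limma fits with a pseudocount of 1, 28 at a pseudocount of 0.1 and 0 with the covariate. Of the 35 genes of the single-cell comparison, 16 passed by DESeq2 and 0 with the covariate. DESeq2 called 2 cumulus genes, 1 contact gene (also 1 with protein-coding rows only) and 1 gene named for non-neighboring cells and among the 97 as higher in neighboring pools, and 1 named noncoding RNA and 1 abundant gene as higher in non-neighboring pools.

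The pool numbers recur in both groups. Deviations of same-numbered pools correlated with r of 0.01 to 0.20, above 0.1 in 2 of 7 pairs, and 3 of 7 pools had their best partner in their own number. These values do not settle whether same-numbered pools are pairs, and the main test used no block. With the pool number as a block, 0 genes were higher and 0 lower, 0 noncoding rows passed in either direction, and 0 of the oocyte list and 0 of the 35 genes passed (703 genes at an unadjusted p under 0.05).

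Leaving out 1 pool gave 0 to 52 genes higher in neighboring pools and 0 to 5 higher in non-neighboring pools, 0 to 5 and 0 to 2 noncoding rows, 0 to 21 of the oocyte list, 0 to 9 of the 35 genes, and 0 to 1 contact and abundant genes. The count higher in neighboring pools was 0 without non-neighboring pool 03 (488 at an unadjusted p under 0.05), 2 without neighboring pool 05 or non-neighboring pool 04, 3 without neighboring pools 04 or 06 or non-neighboring pools 05 or 07, 5 without non-neighboring pool 01 and 12 without non-neighboring pool 06. The count higher in non-neighboring pools was 5 without neighboring pool 01, and 2 without neighboring pool 03 or non-neighboring pool 02. The difference in detectable genes ranged from -603 to 703, that in the noncoding share from -3.06 to -2.04 percentage points and that in the ERCC share from -0.864 to 1.18 points. The difference in genes with at least 5 reads was -227.

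Directions reversed under the covariate for Gdf9 (-0.13), Bmp15 (-3.01), Btg4 (-1.13), Bcl2l10 (-0.19), Uchl1 (-0.0949), Zbed3 (-0.13), Gm26618 (-0.30), H1foo (-1.14), Gja4 (-0.46) and Inha (0.89). With ERCC totals, Gja1 (-0.42) and Amhr2 (-0.28) reversed, and Inha did in the limma fits (0.0873 at a pseudocount of 1, also with the difference of 1.8, 0.0874 at 0.1 and 0.0864 at 10). Leaving out 1 pool put the value of gene Inha between -0.3225 and 0.0026. The cause was not tested. Depth limits rows such as RP23-214I6.5, with 8 reads over the non-neighboring pools.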

Other observations

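Cell cycle genes were not part of the comparisons above. All 10 tested genes of DNA replication had a fold change above 0, with a median of 0.94 and a range from 0.33 to 1.15, and none passed the threshold. With ERCC totals, 2 of the 10 were above 0 and the median was -0.11. Mcm2, of the replicative helicase, had 1.15 ± 0.54 (edgeR adjusted p = 0.999) and Ccnb1, the mitotic cyclin B1, had 1.66 ± 0.59 (edgeR adjusted p = 0.762). Ccnb1 was also high in oocytes, at 9.69 on the log2(RPM+1) scale. The 8 tested mitosis genes had a median of 0.47.

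Mitochondrial genes had a median of -0.16 over 14 tested and none passed. Their summed level was 19051 to 44407 RPM in neighboring pools and 23155 to 47596 RPM in non-neighboring pools. Of 11 immediate early genes, 2 passed the filter on low counts, at -0.28 and 1.08. The 6 genes of mural granulosa cells did not pass the filter, with summed levels of 0 to 214 RPM and 0 to 509 RPM. Of 2 endothelial genes, 1 was tested, at -0.31.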
